A study of Gallus gallus with 12 samples.

Results

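MASP1, PXDNL, NDNF, C1QTNF8, TGFBI, SPON2 and ACE, 7 of the 12297 transcript rows measured by RNA sequencing in skin of the chicken embryo, were followed as genes of secreted or shed proteins whose level rises with age in feather-forming and in scale-forming skin. They were selected on measured values of these same libraries, namely the rise of dorsal skin from embryonic day 7 (E7) to E9 and the rise of scale skin from E9 to E11, so both rises are given here as descriptions, without a test. All 7 symbols matched 1 row each. The embryos were untreated White Leghorn chickens, and no allele or agent separates the groups. Feather-forming skin came from the back at E7 and at E9 (dorsal E7 and dorsal E9) and from the thigh and the wing at E9, and scale-forming skin came from the lower leg (tarsometatarsus), once at E9 and once at E11 (scale E9 and scale E11). The Hamburger and Hamilton stages were 31 at E7, 35 at E9 and 37 at E11, and each of the 6 groups had 2 libraries. Sample titles name dermis while tissue labels name skin, and nothing states whether replicates came from separate embryos or pools, so the spread between them may be technical.

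Skin appendages form where epidermis and dermis exchange signals, and the dermis meanwhile lays down a fibrous matrix and becomes supplied with vessels and nerves. Proteins released from cells take part in each of these steps: matrix adaptors tie cells to collagen, trophic factors act on neurons and endothelium, and proteases and peptidases activate or destroy soluble mediators. Scales of the lower leg begin to form later in development than feathers of the back, so any comparison of dorsal with scale skin carries differences of stage of appendage and body site, and in most pairs of age, that cannot be told apart.

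The libraries held 13164609 to 20641980 reads, recovered from the deposited CPM (read counts scaled by a factor for each library), and 1 read was worth 0.0475 to 0.0736 CPM. Thigh replicate 2 summed to 1210600 CPM and the other 11 libraries to 958975 to 1010020 CPM, so the factor was not library size alone. A count of 0 allows a level of up to 3 reads, which was 0.143 to 0.221 CPM per library and covers counting error only. Thigh replicate 2 stood apart, with 12.9% of its signal in 12 mitochondrial rows against 3.24% to 4.75% in the other 11 libraries. The W-chromosome gene HINTW stood at 0.15 and 0.26 CPM in dorsal E9 and at 30.88 to 152.24 CPM elsewhere, and 27 rows under 0.5 CPM in both dorsal E9 libraries reached at least 1 CPM in every other library, with 0 of the 7 genes among them. Dorsal E9 thus differed from every other group, dorsal E7 included, in W-linked RNA, and this cannot be told apart from the difference of age or site in any comparison with dorsal E9. Markers of dermal fibroblasts were abundant in every library, with 10 of them summing to 13544 to 33189 CPM, and 12 keratinocyte markers summed to 63.2 to 617 CPM, so epidermis was present as well. The sum of 9 cartilage markers was 514 to 1960 CPM and that of 5 tendon markers 435 to 2085 CPM.

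MASP1 (ENSGALT00000012000.5) encodes a serine protease that circulates bound to collectins and ficolins and acts in the lectin pathway of complement. It stood at 2.87 and 2.10 CPM in dorsal E7 and at 254.74 and 194.29 CPM in dorsal E9, a ratio of means of 90.3 and a log2 change of 6.01 ± 0.28 (SE), which placed it first of all rows for the dorsal rise. It stood at 25.18 and 53.28 CPM in thigh, at 33.17 and 28.60 CPM in wing, at 7.76 and 6.71 CPM in scale E9 and at 45.71 and 45.73 CPM in scale E11. Dorsal E9 was thus far above every other group, dorsal E7 was the lowest, and the thigh pair spanned the values of both wing and scale E11. The change in scale skin, 2.51 ± 0.28 on the log2 scale or 6.32-fold in mean CPM, was smaller than that in dorsal skin by 3.50 ± 0.40.

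PXDNL (ENSGALT00000009463.4) encodes a peroxidasin-like protein, a relative of the peroxidase that crosslinks collagen IV of basement membranes. In dorsal skin it stood at 5.59 and 6.03 CPM at E7 and at 129.67 and 151.84 CPM at E9, and in scale skin at 6.37 and 4.49 CPM at E9 and at 57.92 and 54.96 CPM at E11. The starting levels of both skins overlapped, and both rises were large, with log2 changes of 4.38 ± 0.24 in dorsal and 3.17 ± 0.24 in scale skin. Thigh, at 67.93 and 41.56 CPM, overlapped scale E11, and wing, at 21.40 and 28.36 CPM, lay below both and above the starting levels.

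NDNF (ENSGALT00000019508.4) encodes a secreted factor with fibronectin type III domains, named for its trophic effect on mouse neurons and also described to act on endothelial cells. It was the only one of the 7 whose 6 groups did not overlap at all. It stood at 27.67 and 33.37 CPM in dorsal E7, at 81.92 and 53.00 CPM in scale E9, at 89.41 and 92.07 CPM in wing and at 111.88 and 148.68 CPM in thigh. It reached 223.64 and 231.04 CPM in dorsal E9 and 424.88 and 485.59 CPM in scale E11, the group with the highest level. The log2 changes with age were close to each other, at 2.86 ± 0.21 in dorsal and 2.77 ± 0.21 in scale skin, a difference of -0.10 ± 0.29.

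C1QTNF8 (ENSGALT00000008437.4) belongs to the C1q and TNF related proteins, secreted relatives of the hormone adiponectin with a globular C1q domain. It stood at 1.55 and 2.05 CPM in dorsal E7 and at 23.39 and 12.01 CPM in dorsal E9, a log2 change of 2.68 ± 0.32. In scale E9 it was near the limit of detection, at 0.21 and 0.12 CPM, or 3 and 2 reads, and in scale E11 it stood at 14.56 and 27.97 CPM. Pooled over the pair of libraries these are 5 and 784 reads, a depth-scaled ratio of 134.6 with an exact 95% interval for counting error of 57.4 to 416. On the log2(CPM + 1) scale the same change was 4.19 ± 0.32, first of all rows for the scale rise, and that scale understates changes from so low a level: DESeq2 fitted 7.04 to the recovered reads. Thigh, at 0.50 and 0.91 CPM, lay below dorsal E7, whereas wing, at 2.81 and 2.99 CPM, lay above it, and the pairs of dorsal E9 and scale E11 overlapped.

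TGFBI (ENSGALT00000010215.4) encodes an adhesive matrix protein with fasciclin domains that is induced by TGF-beta and binds collagen and integrins. It stood at 24.29 and 24.56 CPM in dorsal E7, at 192.28 and 165.13 CPM in dorsal E9, at 40.86 and 27.72 CPM in scale E9 and at 180.00 and 215.91 CPM in scale E11. Dorsal E9 and scale E11 overlapped, and the log2 changes, 2.82 ± 0.25 and 2.51 ± 0.25, differed by -0.30 ± 0.36. Wing, at 114.57 and 102.05 CPM, lay between the early and the late groups, and thigh, at 74.71 and 39.96 CPM, overlapped scale E9.

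SPON2 (ENSGALT00000045656.1) encodes spondin 2, a secreted matrix protein with a thrombospondin repeat that in mice serves as an integrin ligand and in innate immune recognition. It stood at 1.47 and 2.05 CPM in dorsal E7 and at 53.11 and 49.23 CPM in dorsal E9, a log2 change of 4.25 ± 0.31. Scale E9 was already at 16.00 and 21.30 CPM, 10.6 times dorsal E7 in mean CPM, and scale E11 was highest at 84.25 and 126.99 CPM, a change of 2.42 ± 0.31. Thigh, at 15 and 29.01 CPM, overlapped both scale E9 and wing, the latter at 24.56 and 39.91 CPM.

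ACE (ENSGALT00000040528.2) encodes angiotensin-converting enzyme, a membrane peptidase whose outer part can be shed, which makes angiotensin II and breaks down bradykinin and is typical of endothelium. It stood at 4.05 and 5.46 CPM in dorsal E7 and at 67.92 and 45.84 CPM in dorsal E9, a log2 change of 3.31 ± 0.23. It was lowest in scale E9, at 2.56 and 2.51 CPM, and reached 18.23 and 16.90 CPM in scale E11, a change of 2.39 ± 0.23. Thigh, at 16.64 and 12.97 CPM, and wing, at 15.42 and 13.64 CPM, overlapped each other and lay just under scale E11.

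**Figure D1:**
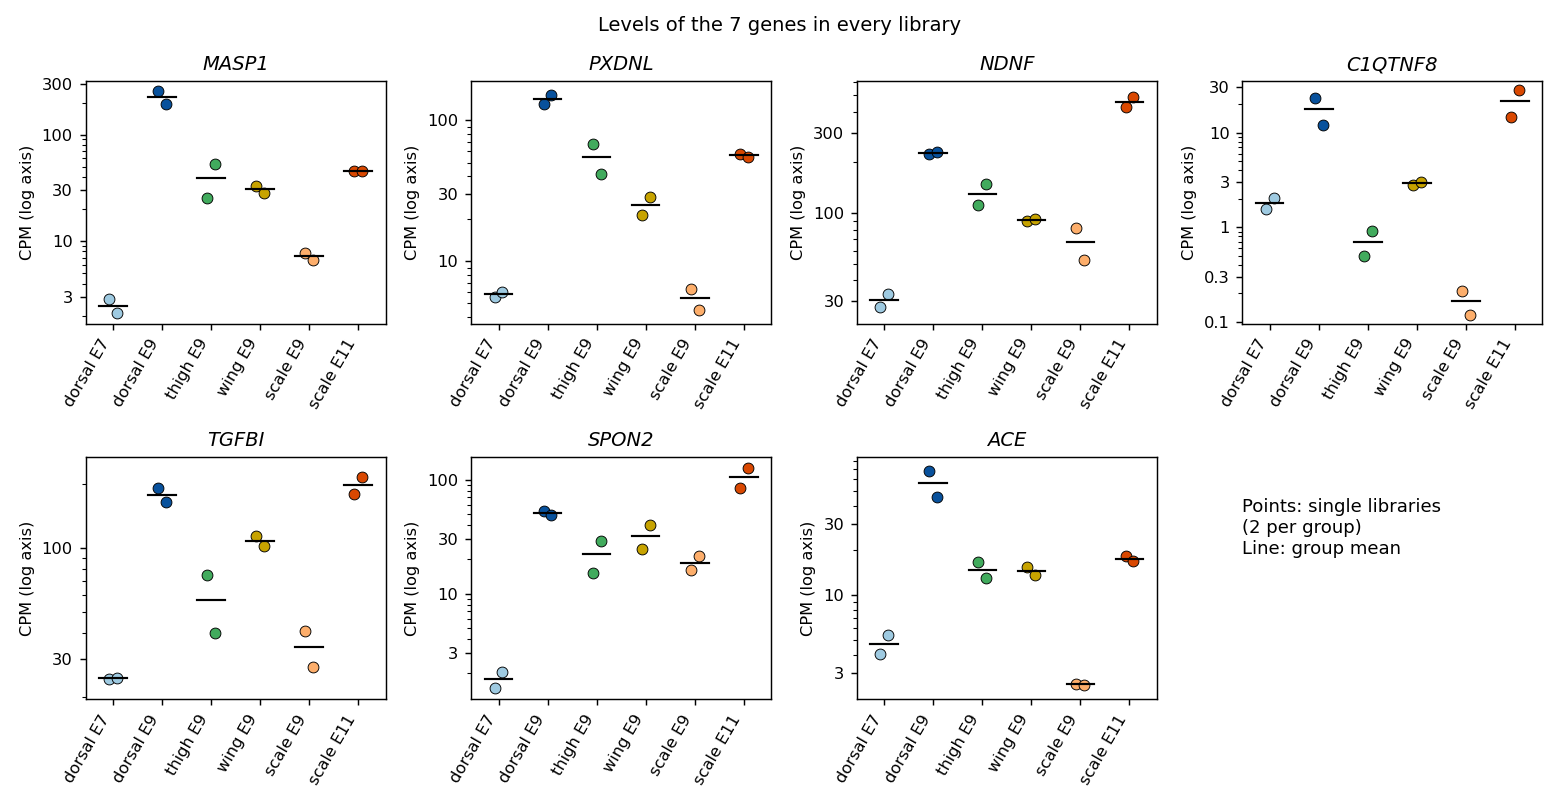
Level of each of the 7 genes in every library, in CPM on a log axis, with 1 point per library, 2 libraries per group and a line at the group mean. Dorsal E9 is the highest group for MASP1, PXDNL and ACE, and scale E11 has the highest mean for NDNF, C1QTNF8, TGFBI and SPON2.

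Calls across all rows came from limma on log2(CPM + 1) at a Benjamini-Hochberg adjusted p under 0.05 over 12277 rows. With age 12.2% of rows were called higher and 7.96% lower in dorsal skin, and 4.37% were called higher and 1.46% lower in scale skin. Of the calls with age in dorsal skin 60.5% were higher, or 51.1% after quantile normalization. Of those in scale skin 75.0% were higher, or 64.5% after quantile normalization. Both rises were called for 366 rows, 2.98% of those tested, which was 24.5% of the 1494 rows called higher in dorsal skin and 68.2% of the 537 called higher in scale skin. Since the 7 genes were chosen for these rises, their presence among the 366 is no result. Ranked by the smaller of both log2 changes they held 7 of the first 10 places, from PXDNL in place 2 to ACE in place 10, at 2.39. The other rows of the first 10 were TRPS1, a zinc-finger repressor, in place 1 at 3.68, FOXD1, a forkhead factor, at 2.58 and SCML4, a Polycomb-related gene, at 2.50, and the rows just below ACE were HGF/SF, hepatocyte growth factor, at 2.35 and GEM, a small GTPase, at 2.34.

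**Figure D2:**
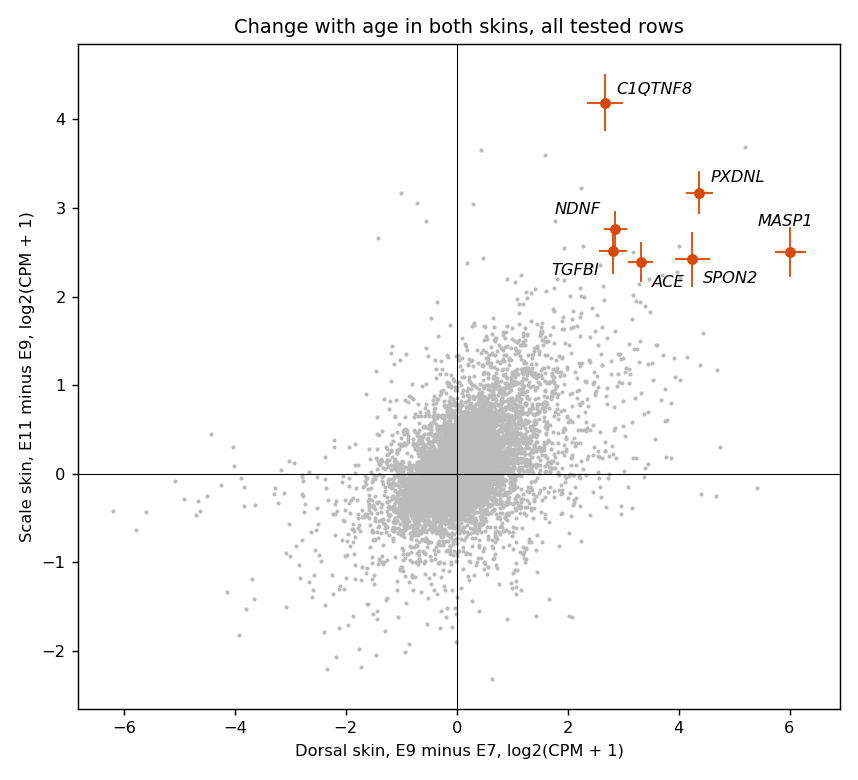
Change with age of every tested row in dorsal skin (E9 minus E7, horizontal) against scale skin (E11 minus E9, vertical), both as log2(CPM + 1). The 7 genes are marked with bars of ± SE, at 2.68 to 6.01 in dorsal and 2.39 to 4.19 in scale skin. They were chosen for lying in this corner.

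The genes differed among themselves in how their rises compared between the skins. The change in scale minus that in dorsal skin was 1.51 ± 0.46 for C1QTNF8, near 0 for NDNF and TGFBI as given above, and -0.92 ± 0.32 for ACE, -1.20 ± 0.34 for PXDNL and -1.82 ± 0.44 for SPON2, with MASP1 at the far end. The intervals of age differ between the skins, and these values share the libraries that chose the genes, so they are given without a test. At the late stages scale E11 lay above dorsal E9 without overlap for NDNF (log2 difference 0.996) and SPON2 (1.003), and below it for MASP1 (-2.26), PXDNL (-1.30) and ACE (-1.61), or 5 of 7 genes without overlap. Over all rows 51.8% had library pairs without overlap in this comparison, and 11.9% were called in either direction. At the early stages scale E9 lay above dorsal E7 for MASP1 (1.25), NDNF (1.09), TGFBI (0.45) and SPON2 (2.83) and below it for C1QTNF8 (-1.26) and ACE (-0.69), or 6 of 7 without overlap, where 58.7% of all rows did not overlap and 13.3% were called. With 2 libraries a side such counts are a weak description.

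Levels in scale E9 against feather-forming skin of the same age use scale E9 and dorsal E9, which both chose the genes, and are likewise described only. Scale E9 was the low end of the scale rise and dorsal E9 the high end of the dorsal rise. The log2 difference from the average of the 3 feather regions at E9 was negative for all 7, at -3.19 ± 0.20 for PXDNL, -2.97 ± 0.23 for MASP1, -2.76 ± 0.19 for ACE and -2.07 ± 0.26 for C1QTNF8. It was smaller for TGFBI (-1.57 ± 0.21), NDNF (-1.06 ± 0.17) and SPON2 (-0.77 ± 0.25). Over all rows 8.86% were called lower and 7.77% higher in scale skin, and of the 366 rows called higher with age in both skins 254 were called lower in scale E9, so a low level there went along with the choice of rising rows. Thigh and scale E9 overlapped for TGFBI and SPON2. Wing and dorsal E9 lay above scale E9 for the 7 genes, which is no result, since scale E9 was a low end that chose them. The share of all rows without overlap was not computed for these pairs. It was 51.8% to 58.7% in the pairs of groups where it was computed.

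Markers of vessels were higher with age in both skins and lower in scale E9 than in the average of the feather regions, as the 7 genes were. Both marker sums were lower in wing than in dorsal E7. Wing minus dorsal E7 ran from 0.48 ± 0.32 (C1QTNF8) to 3.56 ± 0.31 (SPON2) on the log2 scale over the 7 genes. Of 12277 rows 849 were called higher and 790 lower in wing than in dorsal E7. Dorsal E7 and scale E9 were the low ends of the rises that chose the genes. Comparisons of them with wing are thus descriptions only. The sum of 11 endothelial markers was 563 to 573 CPM in dorsal E7, 1095 to 1366 in dorsal E9, 660 to 886 in thigh, 362 to 479 in wing, 241 to 330 in scale E9 and 711 to 802 in scale E11. That is a 2.17-fold rise in dorsal and a 2.65-fold rise in scale skin. Of the 11 markers 9 were called higher with age in each skin, 8 of them in both, and 9 were called lower in scale E9 than in feather skin. Of all rows 12.2% were called higher with age in dorsal skin, 4.37% in scale skin and 2.98% in both, and 8.86% were called lower in scale E9. The sum of 8 smooth muscle and pericyte markers rose 4.48-fold in dorsal and 1.79-fold in scale skin, with 7 and 2 markers called higher. Of these 8 markers 7 were called lower in scale E9 than in feather skin. That sum was 104 to 170 CPM in scale E9, which overlapped the 105 to 150 CPM of wing. Scale E9 minus wing ran from -2.13 ± 0.23 (ACE) to -0.46 ± 0.21 (NDNF) on the log2 scale over the 7 genes. Of 12277 rows 507 were called lower and 585 higher in scale E9 than in wing. The ratios of the 7 genes, 7.32 to 90.3 in dorsal and 5.66 to 129 in scale skin, exceeded those of both sums. Since the 7 genes were chosen for these rises, that excess is no result. The part of vessel content in the rises of the 7 genes was not tested. In whole tissue, fewer cells of a type cannot be told apart from less RNA per cell.

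Of 9 macrophage and leukocyte markers 0 were called with age in either skin by limma or edgeR and 1 by DESeq2, in dorsal skin, with 2 at an unadjusted p under 0.05 there and 0 in scale skin by each tool. Their sum changed 1.28-fold in dorsal and 1.05-fold in scale skin. The marker counts stand beside 12.2% of all rows called higher in dorsal and 4.37% in scale skin. Of 12 keratinocyte markers 5 were called higher in dorsal E9, with a sum 1.93-fold that of dorsal E7. In scale skin their sum was 252 to 617 CPM at E9 and 167 to 264 CPM at E11, which overlapped, and 0 of the 12 were called by limma, edgeR or DESeq2, with 4, 6 and 2 lower at an unadjusted p under 0.05. The sum of the dermal fibroblast markers was 0.992-fold in dorsal and 1.35-fold in scale skin. The sum of 3 skeletal muscle markers was 6.93 to 11.8 CPM in dorsal E7 and 14.1 to 58.7 CPM in dorsal E9, a 3.88-fold mean ratio with 1 marker called higher and 1 lower, and 1.08-fold with age in scale skin. Cartilage, tendon, Schwann cell and red blood cell sums ran from 0.798-fold to 1.22-fold in dorsal and from 1.10-fold to 1.26-fold in scale skin. Single markers did move. Of 9 cartilage markers 4 were called higher and 2 lower in dorsal skin. Of 5 tendon markers 2 were called higher in dorsal and 1 in scale skin. Of 10 dermal fibroblast markers 2 were called higher and 1 lower in dorsal skin, and 1 higher in scale skin. In dorsal skin 1 of 4 Schwann cell markers was called higher and 1 of 4 red blood cell markers lower. Of all rows 7.96% were called lower in dorsal skin. Other lists than those of vessels also differed between scale E9 and feather skin. Of 12 keratinocyte markers 5 were called higher in scale E9, and of 9 cartilage markers 4 were higher and 1 lower. Of 4 red blood cell markers 2 were called lower. Tendon and dermal fibroblast lists each had 1 higher and 1 lower. Of macrophage and leukocyte, Schwann cell and skeletal muscle markers 0 were called. Of all rows 7.77% were called higher and 8.86% lower in scale E9. The part of these cells in the changes of the 7 genes was not tested.

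Wing against thigh skin at E9 was the contrast that took no part in choosing the genes, and it was tested in limma over all rows, of which 20.9% were called. PXDNL was lower in wing than in thigh by a log2 difference of -1.08 ± 0.24 (adjusted p 0.00713 in limma, 95% interval -1.60 to -0.56). C1QTNF8 was higher in wing by 1.20 ± 0.32 (adjusted p 0.0196 in limma, interval 0.51 to 1.90), and TGFBI was higher in wing by 0.97 ± 0.25 (adjusted p 0.0175 in limma, interval 0.42 to 1.52). Thus 3 of 7 were called, in both directions, and the pairs of libraries did not overlap for these and for NDNF, 4 of 7, where 57.8% of all rows did not overlap. NDNF, at -0.50 with an interval of -0.95 to -0.06, did not pass after adjustment (adjusted p 0.100 in limma), nor did MASP1 (-0.25, interval -0.85 to 0.36, adjusted p 0.571), SPON2 (0.56, interval -0.11 to 1.24, adjusted p 0.221) or ACE (-0.02, interval -0.51 to 0.48, adjusted p 0.966). The sum of endothelial markers in wing was 0.544 times and that of smooth muscle and pericyte markers 0.483 times that in thigh, with 3 endothelial markers called lower, and 3 smooth muscle and pericyte markers called lower and 1 higher. Their part in the differences of the 7 genes was not tested.

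The thigh pair differed 1.28-fold (ACE) to 2.12-fold (MASP1). Over the tested rows the thigh pair agreed least, with a Spearman correlation of 0.970 against 0.987 to 0.996 in the other groups. The intervals use a spread shared by all 12 libraries, so they may understate the spread within thigh. PXDNL was not called without wing replicate 1 (-0.88), nor C1QTNF8 without thigh replicate 1 (1.03), wing replicate 1 (1.24) or wing replicate 2 (1.17). TGFBI was not called without thigh replicate 2 (0.53), wing replicate 1 (0.89) or wing replicate 2 (1.05). Each of these fits left 1 library in a group, so a lost call cannot be told apart from the loss of a replicate. In the other direction, MASP1 (-0.77) and NDNF (-0.71) were called without thigh replicate 1. SPON2 (1.02) was called without thigh replicate 2, the library rich in mitochondrial reads. MASP1 changed sign without that library, at 0.28. With only the 4 libraries of wing and thigh in the fit, C1QTNF8 alone was called, and PXDNL and TGFBI had adjusted p-values of 0.0804 and 0.116 in limma.

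**Figure D3:**
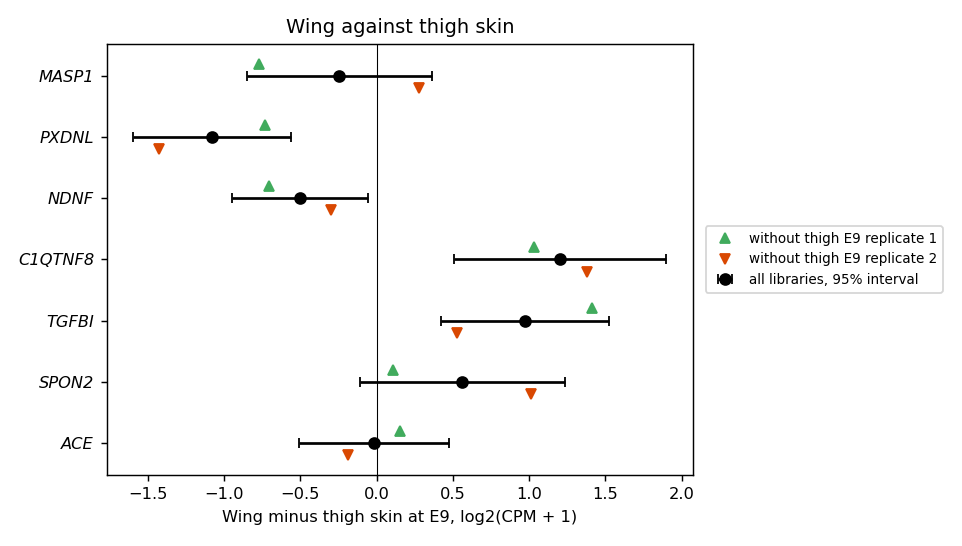
Difference between wing and thigh skin at E9 in log2(CPM + 1), with 95% intervals from the fit to all 12 libraries and triangles for the value without either thigh library. PXDNL lies below 0 at -1.08 and C1QTNF8 and TGFBI lie above 0 at 1.20 and 0.97, with the same sign for each triangle. MASP1 and ACE change sign with the library left out.

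Among the 7, the profiles most alike over the 12 libraries were those of PXDNL and ACE. Likeness was measured as the root mean square difference of log2(CPM + 1), each profile minus its own mean, and came to 0.58 for PXDNL and ACE, 0.61 for NDNF and TGFBI and 0.70 for MASP1 and PXDNL. MASP1 and C1QTNF8 were farthest apart at 1.46. These values are over 12 libraries, 2 from each group, so every profile shares the differences between groups and libraries, and all 7 share the rises they were chosen for.

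Outside the set, TRPS1 was the row nearest to both MASP1 (0.54) and PXDNL (0.53), where the median over all candidate rows was 1.95 and 1.68. KIAA0408 (0.69) and FOXD1 (0.76) followed for MASP1, and ADGRD1 (0.66), an adhesion receptor, and FOXD1 (0.68) for PXDNL. NDNF was nearest to GDF10 (0.49), a BMP-related ligand, SEMA3G (0.52), a secreted semaphorin, and GFRA2 (0.52), a receptor for neurturin, against a median of 1.28. TGFBI was nearest to ADAMTS9 (0.36), a matrix protease, FIBIN (0.41) and GDF10 (0.41), against 1.19. ACE was nearest to the transcription factors EBF1 (0.43) and EBF2 (0.45) and to ACSS3 (0.48), against 1.32. SPON2 was nearest to BMP6 (0.54), ADAMTS17 (0.54) and EYA4 (0.59), against 1.68, and C1QTNF8 had the most distant neighbours, GEM (0.75), SEMA3G (0.76) and SS1R (0.77), against 1.64.

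Genes next to the 7 on the chromosomes were examined as well. In the gene order of the RefSeq annotation of GRCg7b, which is not the build of the deposited table, the nearest measured protein-coding gene on either side gave 14 neighbours, 8 of them directly adjacent. With age 7 of the 14 were called higher in dorsal skin and 3 in scale skin, the same 3 in both, where 12.2%, 4.37% and 2.98% of all rows were called. The 3 were SS beside MASP1, with log2 changes of 3.17 and 2.02, FGFRL1 near SPON2, an FGF receptor-like protein, with 2.24 and 2.01, and SOX8 near C1QTNF8, a transcription factor, with 1.21 and 1.28. Neither neighbour of PXDNL, NDNF, TGFBI or ACE was called higher in scale skin.

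Relatives and partners of the 7 genes were followed in 7 lists of 141 measured genes that leave out the 7 themselves. With age 46 were called higher and 13 lower in dorsal skin, 27 were called higher and 2 lower in scale skin, and 20 were called higher in both. In dorsal skin that is 32.6% higher and 9.22% lower, beside 12.2% and 7.96% of all rows, in scale skin 19.1% and 1.42%, beside 4.37% and 1.46%, and in both 14.2%, beside 2.98%. The genes were listed with earlier results known, and several lists hold vessel genes, so these shares are descriptions. The median log2 change was 0.40 in dorsal and 0.31 in scale skin, against 0.03 and 0.01 over all rows. Scale E9 had 29 called lower and 16 called higher than feather skin, which is 20.6% and 11.3% beside 8.86% and 7.77% of all rows, and 48 (34.0%, beside 20.9%) were called between wing and thigh. Fewer of the list genes were called higher in scale skin without scale E9 replicate 2 or scale E11 replicate 2. The same held in dorsal skin without dorsal E9 replicate 1. Each of these fits left 1 library in a group, so lost calls cannot be told apart from the loss of a replicate. Of the genes named below, 19 of 25 calls in dorsal skin and 2 of 12 calls in scale skin, those of CD93 and GFRA2, held in every alternative fit. The others were not called in at least 1 fit with a library left out, which has the same limit. Some changes that did not pass in limma were called in other fits. In scale skin DESeq2 called NTRK3 (adjusted p 0.00359), COL4A6 (0.00869) and TGFBR3 (0.0116), and edgeR called NTRK3 (0.0388). The difference between the skins was called in DESeq2 for LTBP2 (0.00559) and GFRA2 (0.00816), among others. For GFRA2 it was also called in edgeR (0.0462), and had an adjusted p of 0.0558 in limma.

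Of 18 complement and lectin pathway genes 5 were called higher with age in dorsal and 2 in scale skin (27.8% and 11.1%, beside 12.2% and 4.37% of all rows), with medians of 0.43 and 0.32. In limma, edgeR and DESeq2 0 of them were lower in either skin, also at an unadjusted p under 0.05. The collectin COLEC11, a recognition molecule that carries MASP proteases, stood at 1.77 and 1.99 CPM in dorsal E7 and at 33.50 and 27.51 CPM in dorsal E9 (3.45 ± 0.22, adjusted p 2.61e-07 in limma). In scale skin it stood at 8.79 and 7.12 CPM at E9 and at 12.81 and 14.09 CPM at E11, which did not pass (0.70 ± 0.22, adjusted p 0.0885 in limma). Its relative COLEC10 was called in scale skin (1.19 ± 0.27, with 0.72 ± 0.27 in dorsal skin), and VTN, vitronectin, in dorsal skin (1.62 ± 0.26, with 0.34 ± 0.26 in scale skin). The difference between the skins did not pass for either (adjusted p 0.684 and 0.0776 in limma). CD93, a receptor of endothelium, was called in both (1.003 ± 0.25 and 1.52 ± 0.25). Against feather skin 6 of the 18 (33.3%, beside 8.86% of all rows) were called lower in scale E9.

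Of 19 genes of peroxidases and basement membrane 11 were called higher in dorsal skin and 5 in scale skin. These are 57.9% and 26.3%, beside 12.2% and 4.37% of all rows. All 5 were also called in dorsal skin, and the medians were 0.91 in dorsal and 0.48 in scale skin. LAMA2, the laminin alpha chain of muscle and nerve basement membranes, stood at 24.14 and 22.00 CPM in dorsal E7 and at 355.40 and 292.95 CPM in dorsal E9 (3.75 ± 0.23, adjusted p 2.44e-07 in limma). Feather skin of the same age lay far below dorsal E9, at 30.45 and 43.86 CPM in thigh and 33.95 and 47.94 CPM in wing. In scale skin LAMA2 went from 20.50 and 27.02 to 40.07 and 54.04 CPM (0.95 ± 0.23, adjusted p 0.0302 in limma, lost when dorsal E7 replicate 1 or 2, scale E9 replicate 1 or 2, or scale E11 replicate 2 was left out). LAMA4, a laminin chain of vessels, was called in both at 1.59 ± 0.25 and 1.50 ± 0.25. COL4A6, a collagen IV chain, and LAMC3, a laminin gamma chain, were called in dorsal skin, at 2.63 ± 0.34 and 1.98 ± 0.28. Their changes in scale skin, 1.22 ± 0.34 (adjusted p 0.0564 in limma) and 0.65 ± 0.28 (0.261), did not pass, nor did the differences between the skins (0.145 and 0.0867).

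Of 19 neurotrophic factors and receptors 8 were called higher and 2 lower in dorsal skin. In scale skin 4 were called higher and 1 lower, and 3 were higher in both. The shares higher were 42.1% in dorsal, 21.1% in scale and 15.8% in both, beside 12.2%, 4.37% and 2.98% of all rows. The shares lower were 10.5% in dorsal and 5.26% in scale skin, beside 7.96% and 1.46%. NGFR, the low-affinity neurotrophin receptor, stood at 15.60 and 17.97 CPM in dorsal E7 and at 189.78 and 223.70 CPM in dorsal E9 (3.54 ± 0.25), and in scale skin went from 114.89 and 66.42 to 182.96 and 183.62 CPM (1.06 ± 0.25). GFRA2 was called in both skins, at 3.46 ± 0.24 and 2.20 ± 0.24. NTRK3, a receptor for neurotrophin 3, was called in dorsal skin (1.91 ± 0.39). Its change in scale skin, 1.32 ± 0.39 (adjusted p 0.0675 in limma), did not pass, nor did the difference between the skins (0.737).

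Of 18 C1q and TNF related genes 6 were called higher and 2 lower in dorsal skin. In scale skin 6 were called higher and 1 lower, and 5 were higher in both. The shares higher were 33.3% in dorsal, 33.3% in scale and 27.8% in both, beside 12.2%, 4.37% and 2.98% of all rows. The shares lower were 11.1% in dorsal and 5.56% in scale skin, beside 7.96% and 1.46%. ADIPOQ, adiponectin, stood at 1.25 and 0.28 CPM in dorsal E7 and at 7.46 and 4.88 CPM in dorsal E9 (2.06 ± 0.31), and at 1.66 and 1.34 CPM in scale E9 and 5.42 and 8.53 CPM in scale E11 (1.65 ± 0.31). MMRN2, an endothelial matrix protein that is also on the list of endothelial markers, was called in both at 1.35 ± 0.23 and 1.24 ± 0.23. CAPRIN2 fell in both, by 1.41 and 0.59 on the log2 scale, and the collagen gene COL8A1 was lower in dorsal E9 (-1.22 ± 0.28) with 0.73 ± 0.28 in scale skin, which did not pass. Between wing and thigh 11 of the 18 were called (61.1%, beside 20.9% of all rows), 4 higher and 7 lower in wing.

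Of 21 genes of fasciclin proteins and the TGF-beta pathway 3 were called higher and 4 lower in dorsal skin and 1 higher in scale skin, with medians of -0.16 and 0.27. The shares higher, 14.3% and 4.76%, were close to those of all rows, and 19.0% were lower in dorsal skin, beside 7.96%. ITGB3, the integrin beta 3 chain, was the gene called in both, at 19.13 and 20.86 CPM in dorsal E7 and 121.70 and 118.83 CPM in dorsal E9 (2.53 ± 0.21), and at 19.60 and 15.70 CPM in scale E9 and 43.14 and 35.26 CPM in scale E11 (1.11 ± 0.21). TGFBR3, betaglycan, was called higher in dorsal skin (1.45 ± 0.22), and LTBP2, a latent TGF-beta binding protein, was called lower there (-1.58 ± 0.39). Their changes in scale skin, 0.78 ± 0.22 (adjusted p 0.0552 in limma) and 0.28 ± 0.39 (0.801), did not pass. The differences between the skins did not pass either (0.322 and 0.0767). SMAD7, an inhibitor of TGF-beta signalling, stood at 0.00 and 0.05 CPM in dorsal E9 and at 0.81 to 3.94 CPM in the other 10 libraries, the libraries in which HINTW was present. SMAD7 was called lower with age in dorsal skin (-1.53 ± 0.30), but its row followed the presence of W-linked RNA, and whether its reads come from SMAD7 itself was not tested.

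Of 28 spondins and thrombospondin repeat proteins 10 were called higher and 4 lower in dorsal skin. In scale skin 8 were called higher, and 5 were higher in both, with medians of 0.51 in dorsal and 0.72 in scale skin. The shares higher were 35.7% in dorsal, 28.6% in scale and 17.9% in both, beside 12.2%, 4.37% and 2.98% of all rows. The share lower in dorsal skin was 14.3%, beside 7.96%. UNC5D, a netrin receptor, stood at 2.43 and 1.99 CPM in dorsal E7 and 21.96 and 39.37 CPM in dorsal E9 (3.25 ± 0.29), and at 1.80 and 1.63 CPM in scale E9 and 6.35 and 6.10 CPM in scale E11 (1.41 ± 0.29). SBSPON was called in dorsal skin (2.63 ± 0.22) and stood at 7.86 and 5.49 CPM in dorsal E9 against at most 0.86 CPM in every other library. The WNT agonist RSPO2 was called in dorsal skin (1.93 ± 0.19), as was the matricellular gene NOV (2.25 ± 0.56). For NOV the change in scale skin, 0.81 ± 0.56 (adjusted p 0.533 in limma), did not pass, nor did the difference between the skins (0.445). Of this list 9 were called higher and 2 lower in wing than in thigh (39.3%, beside 20.9% of all rows).

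Of 18 genes of the angiotensin and kinin system 3 were called higher and 1 lower in dorsal skin and 1 was called higher in scale skin, and the shares higher, 16.7% and 5.56%, were close to the 12.2% and 4.37% of all rows. The 3 were carboxypeptidase M (gene symbol CPM, 1.81 ± 0.33), ENPEP (1.18 ± 0.22), an aminopeptidase that cleaves angiotensin II, and the bradykinin receptor BDKRB2 (1.04 ± 0.23). In scale skin these 3 changed by 0.79 ± 0.33, 0.56 ± 0.22 and -0.01 ± 0.23. Their differences between the skins did not pass (adjusted p 0.304, 0.387 and 0.102 in limma). ANPEP, an aminopeptidase, was called in scale skin, from 10.80 and 4.84 CPM at E9 to 29.02 and 21.76 CPM at E11 (1.65 ± 0.35). Its change in dorsal skin was 0.52 ± 0.35, and the difference between the skins did not pass (adjusted p 0.289 in limma).

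**Figure D4:**
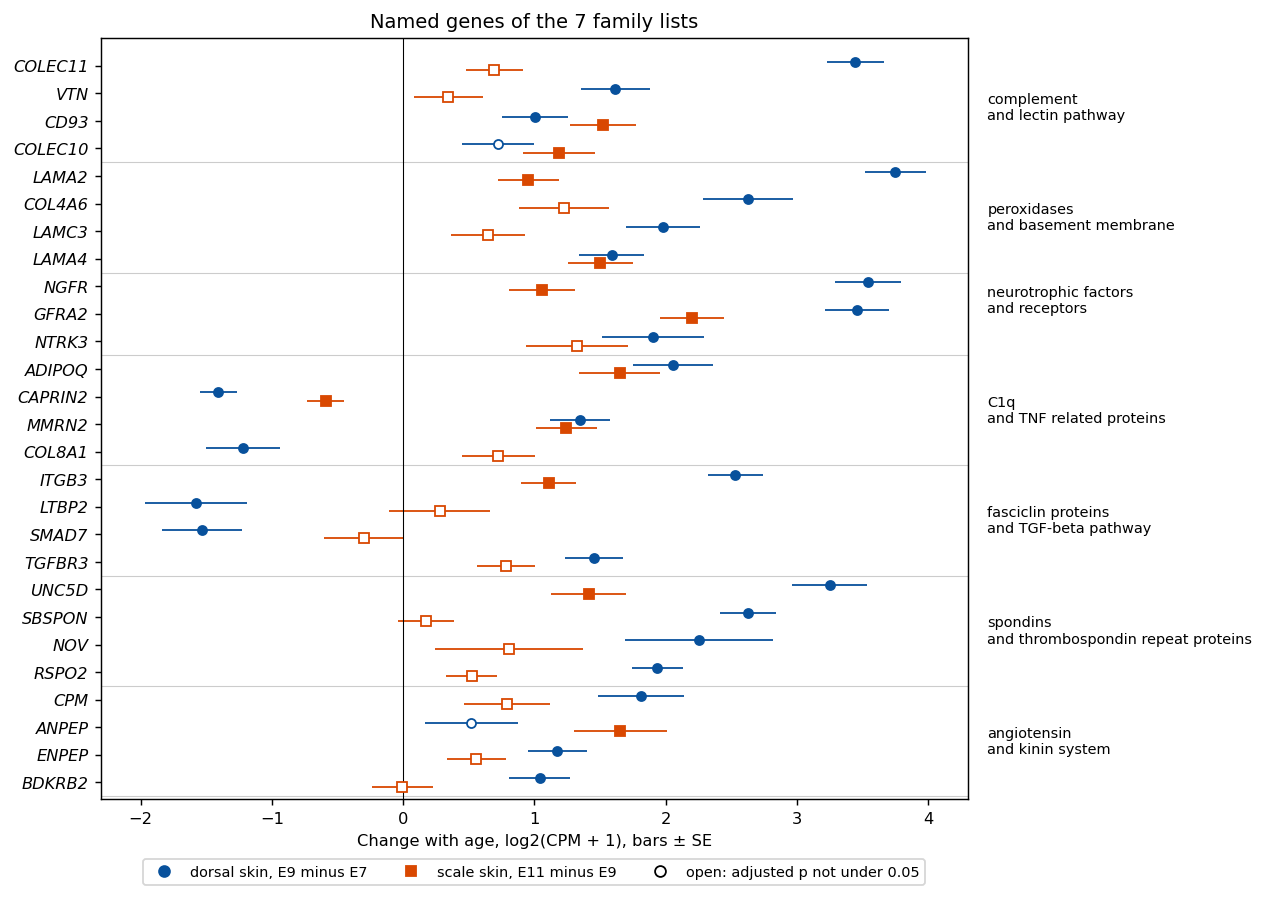
Change with age in log2(CPM + 1) of the 27 named genes of the 7 lists, in dorsal skin (E9 minus E7, circles) and scale skin (E11 minus E9, squares), with bars of ± SE and open symbols where the adjusted p in limma was not under 0.05. The dorsal change of COLEC11, LAMA2 and NGFR lies above 3, while their scale change lies at 0.70, 0.95 and 1.06.

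Between the skins the change with age itself was tested for these named genes, and 9 of 27 differed at an adjusted p under 0.05 in limma, where 4.98% of all rows did. The named genes were picked as those with the largest called changes of their lists, so this share cannot be read against the background. COLEC11, LAMA2, NGFR, SBSPON, UNC5D, RSPO2 and ITGB3 had the larger rise in dorsal skin, and COL8A1 and CAPRIN2 had the more negative change there.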

How the data were processed

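Total RNA of skin was taken up in Trizol and, per the labels, sequenced with the TruSeq RNA V2 kit. The authors deposited 1 table of 12297 rows (Ensembl transcripts with symbols) and 12 columns of CPM, treated as signal because thigh replicate 2 sums to 1210600. TopHat2, Partek, HTSeq, edgeR and the build galGal4 are named in the submitters' processing notes, with no version, role or order. The deposited signal came to whole reads within 0.0055 CPM for 100.0% of values up to 100 CPM, which gives the depths and the reads used in the count tests.

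Values were analysed as log2(CPM + 1), which understates changes of low genes. A row entered the tests where 2 or more libraries reached 1 CPM (12277 kept, 20 removed, and all 7 genes passed). A model with 1 mean per group over the 12 libraries was fitted in limma 3.58.1 with a mean-variance trend (6 residual and 6.95 prior degrees of freedom), two-sided, with Benjamini-Hochberg adjustment over all rows. The scripts were tested on simulated data. Alternatives were pseudocounts of 0.5 and 2 CPM, no filter or 5 CPM, median-of-ratios and quantile scaling, only the libraries compared, no trend, a replicate block, each library left out, edgeR 4.0.16 and DESeq2 1.42.0 on recovered reads, and, added after seeing the data, a fit without dorsal E9.

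The 7 genes, the lists and the tests were chosen with earlier results of these data known. List genes named are up to 4 per list with the largest called change with age (1 that met this rule is not reported here), and likeness was sought among rows with their own symbol and at least 5 CPM in the highest group. Levels were not compared between genes, since transcript lengths were not used here.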

Additional observations from a re-analysis of the deposited data

Results flagged for a closer look

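For 9 named list genes the change with age in scale skin (E11 minus E9) differed from that in dorsal skin (E9 minus E7) by the test of the difference in limma, on the log2(CPM + 1) scale. The intervals of age and the body sites differ between the skins, and dorsal E9 differed from every other group in W-linked RNA. Such differences cannot be told apart. The difference, scale minus dorsal, was -2.75 for COLEC11 (adjusted p 0.000221), -2.80 for LAMA2 (0.000331), -2.45 for SBSPON (0.000476) and -2.48 for NGFR (0.00119), and these 4 held in every alternative fit. It was -1.41 for RSPO2 (0.00934), 1.95 for COL8A1 (0.0125), -1.42 for ITGB3 (0.0136), -1.84 for UNC5D (0.0190) and 0.82 for CAPRIN2 (0.0352). These 5 were not called in at least 1 fit with a library left out. Where that left 1 library in a group, a lost call cannot be told apart from the loss of a replicate.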

How the results depend on the processing

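No result changed its direction and its call together, and the signs of both rises of the 7 genes held in all alternatives. Of the 7 genes 3 were called between wing and thigh, 1 with only the libraries compared, and 0 to 4 with 1 library left out. List genes higher with age in dorsal skin numbered 46, and 30 to 54 with 1 library left out. Those lower numbered 13, 22 with only the libraries compared, and 6 to 21 with 1 left out. List genes higher in scale skin numbered 27, and 5 to 38 with 1 left out. Those lower numbered 2, 4 with only the libraries compared, 5 in DESeq2, and 0 to 5 with 1 left out. Over all rows, only the libraries compared gave 4405 calls in place of 2471 with age in dorsal skin and 900 in place of 2561 between wing and thigh. With 1 library left out the counts ran from 1289 to 3651 with age in dorsal skin, 203 to 1345 with age in scale skin and 863 to 4671 between wing and thigh. Leaving 1 library out left 1 library in its group, so calls lost there cannot be told apart from the loss of a replicate. The cause was not tested. Replicate numbers are not stated to pair the samples. Deviations between replicates correlated at -0.10 to 0.23 over 15 pairs of groups, which cannot settle whether samples were paired. A replicate block gave 3 of 7 genes between wing and thigh, 2601 rows with age in dorsal and 736 in scale skin. Depth limits C1QTNF8 in scale E9, at 3 and 2 reads.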
